A study of Homo sapiens with 24 samples.

Results

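Adherent OV90 cells with RELA knockdown were compared directly with adherent OV90 cells with RELB knockdown, miRNA by miRNA. These are the 8 libraries whose labels give adherent culture and an shRNA against either subunit, 4 for each, out of 24 libraries in the series. OV90 is an established epithelial ovarian cancer line. Each line carried a doxycycline-inducible shRNA, stably expressed: shRELA, shRELB, or the negative control shNeg, whose samples the labels call wild type. Every group, shNeg included, had received 1 µg/ml doxycycline for 72 h and, in adherent culture, grew in medium with tetracycline-free serum. The remaining libraries were adherent shNeg and the same 3 lines as spheroids, 4 libraries each. Small RNA sequencing does not read RELA or RELB mRNA, so the knockdown itself could not be checked in these libraries. The labels number the replicates but do not say that they were separate cultures, so the p-values measure the spread between these samples, which may be technical, and each knockdown is represented by a single line.

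RelA and RelB are NF-κB transcription factors. RelA, usually paired with p50, carries the canonical arm that responds to inflammatory signals, while RelB, usually paired with p52, carries the slower noncanonical arm. A miRNA is a short RNA that guides Argonaute proteins to partly complementary messages, and bases 2 to 8 from its 5′ end, the seed, do most of the pairing. A hairpin precursor can yield a mature miRNA from either arm (5p or 3p), and hairpins that lie close together are often made from 1 primary transcript. miRNAs with 1 seed are therefore expected to share many targets, and miRNAs of 1 transcript to share their transcription.

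The mature sequences on which the comparison turned are given by family, since several of them come from close relatives that moved apart or together. Capitals mark the seed. The sequences are those of RefSeq (GRCh38.p14).
miR-99a-5p: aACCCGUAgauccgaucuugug
miR-100-5p: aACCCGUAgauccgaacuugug
miR-99b-5p: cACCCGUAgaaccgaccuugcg
miR-125b-5p: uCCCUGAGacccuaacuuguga
miR-125a-5p: uCCCUGAGacccuuuaaccuguga
let-7c-5p: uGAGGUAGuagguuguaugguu
let-7d-5p: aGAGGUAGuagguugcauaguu
let-7f-5p: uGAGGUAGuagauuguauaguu
miR-135a-5p: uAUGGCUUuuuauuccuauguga
miR-135b-5p: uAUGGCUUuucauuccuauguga
miR-192-5p: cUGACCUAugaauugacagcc
miR-215-5p: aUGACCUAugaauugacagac
miR-194-5p: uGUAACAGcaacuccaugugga
miR-200b-3p: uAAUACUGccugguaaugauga
miR-200c-3p: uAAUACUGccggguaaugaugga
miR-141-3p: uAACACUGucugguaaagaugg
miR-200a-3p: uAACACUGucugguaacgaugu
miR-302a-3p: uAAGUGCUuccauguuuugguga
miR-302b-3p: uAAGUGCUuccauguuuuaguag
miR-302d-3p: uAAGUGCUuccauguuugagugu
miR-143-3p: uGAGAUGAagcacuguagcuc
miR-145-5p: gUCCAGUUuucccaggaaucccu
miR-92b-3p: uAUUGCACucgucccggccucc
miR-184: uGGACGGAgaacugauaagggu
miR-335-5p: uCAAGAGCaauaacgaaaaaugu
miR-30a-5p: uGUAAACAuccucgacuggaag
In this set miR-135a-5p and miR-135b-5p differ at 1 of 23 positions, as do miR-99a-5p and miR-100-5p at 1 of 22. miR-192-5p and miR-215-5p differ at 2 of 21, and miR-141-3p and miR-200a-3p at 2 of 22, as do let-7c-5p and let-7f-5p. miR-200b-3p and miR-200c-3p differ at 2 positions when aligned at their 5′ ends. A read with an error can therefore be assigned to its relative.

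Of 2656 mature miRNAs listed, 849 had no count in any library and 905 passed the filter on low counts and were tested. A total of 99 of these were differentially expressed between adherent shRELA and adherent shRELB cells. Of these, 39 were higher and 60 were lower in shRELA. Among miRNAs that averaged 10 CPM or more, the largest differences in the lower direction were in miR-99a-5p and miR-125b-5p, which were 53.5-fold and 37.8-fold lower in shRELA, and the largest in the higher direction were in both arms of miR-215, which were 11-fold (3p) and 8-fold (5p) higher. Values are CPM, the counts scaled to a common library size, after TMM scaling, which corrects library totals for a few very abundant miRNAs, and the log2 fold change is shRELA against shRELB throughout, so a positive value means higher in shRELA. A call needed a Benjamini-Hochberg false discovery rate (FDR) below 0.01 by edgeR's quasi-likelihood test and a fold change above 2. The calls were 10.9% of the miRNAs tested, 4.31% higher and 6.63% lower in shRELA. Of the 317 miRNAs that averaged 10 CPM or more, 64 were called. These shares are the background for the counts of called members in the lists below. In 97 of the 99 the 4 shRELA and 4 shRELB libraries did not overlap, the exceptions being miR-29b-3p and miR-193b-5p, against 31.3% of all miRNAs tested without overlap. The median log2 fold change of all tested miRNAs was -0.02. miR-199a-3p and miR-199b-3p have identical counts in every library, as do miR-3180-3p and miR-3180, so each of these pairs is a single measurement.

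**Figure D1:**
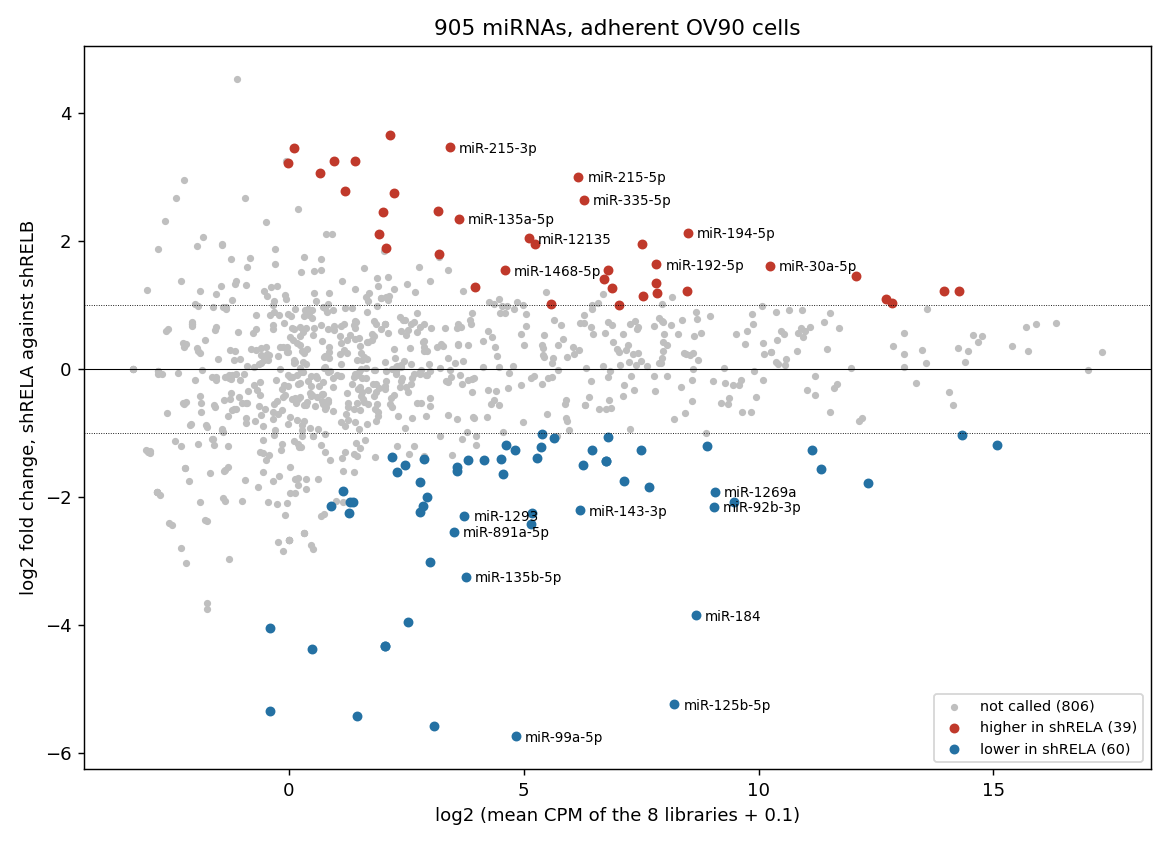
Each point is 1 of the 905 tested miRNAs in adherent OV90 cells, with the log2 of its mean CPM in the 8 knockdown libraries (plus 0.1) on the x axis and its log2 fold change, shRELA against shRELB, on the y axis. The 60 miRNAs lower in shRELA (blue) reach -5.74 for miR-99a-5p, the 39 higher (red) lie between 1 and 4, and dotted lines mark a 2-fold change.

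The adherent shRELA libraries held 5282889 to 8283549 counts and the shRELB libraries 4512503 to 6106053, with 1051 to 1155 and 1099 to 1171 miRNAs detected. An unseen miRNA could still account for 3 counts, or 0.362 to 0.568 CPM of unscaled library totals in shRELA and 0.491 to 0.665 in shRELB. The TMM factors were 0.948 to 1.09 in shRELB and spread more widely in shRELA, at 0.812, 0.923, 0.994 and 0.730 for replicates 1 to 4. Replicate 4 of shRELA held the highest of the 4 shRELA values for 34 of the 39 miRNAs that were higher in shRELA, and replicate 3 the lowest for 28. The same libraries held the highest value for 216 and the lowest for 163 of the 317 miRNAs that averaged 10 CPM or more. With 1 shRELA library left out, 24 miRNAs were called higher without replicate 4, 25 without replicate 1, 38 without replicate 2 and 52 without replicate 3. With 1 shRELB library left out, the numbers were 27, 31, 29 and 26 for replicates 1 to 4. A call is also harder to reach with fewer libraries, so these counts do not measure the part of 1 library. With library totals in place of TMM, which moved the median log2 fold change of all miRNAs to -0.24, 23 were called higher and 83 lower. Of the epithelial markers, miR-200c-3p (1870 to 8719 CPM in the 8 libraries), miR-205-5p (521 to 774 CPM) and miR-141-3p (62.8 to 286 CPM) were present, while miR-429 and miR-203a-3p were at or near 0, at most 1.81 and 0.685 CPM.

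The lowest log2 fold change was at a cluster on chromosome 21. miR-99a (chr21:16539089-16539169, plus strand) and let-7c (chr21:16539828-16539911, plus strand) lie within MIR99AHG, a long noncoding RNA, in an intron and an exon, respectively, and all 3 of their mature miRNAs tested were lower in shRELA. miR-99a-5p, known for repressing mTOR, measured 1.16, 0.763, 1.14 and 0.993 CPM in the 4 shRELA libraries and 58.6, 46.8, 59.9 and 59 CPM in shRELB. Every shRELA library held close to 1 CPM and none came near the shRELB range. The log2 fold change was -5.74 ± 0.47 (SE, FDR 1.65e-11). miR-99a-3p had 2 counts in all 4 shRELA libraries together against 111 in shRELB, a ratio of 59.5 with an exact 95% counting interval of 16.1 to 498. let-7c-5p, a member of the let-7 family that restrains growth genes such as RAS and HMGA2, measured 283, 253, 255 and 301 CPM in shRELA and 1125, 1184, 1156 and 1156 CPM in shRELB, with a log2 fold change of -2.08 ± 0.18 (SE, FDR 4.86e-11). Replicates of both groups lay close together here and far from each other.

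miR-125b-5p, which is made from a hairpin of this host and from another on chromosome 11, followed the cluster. It measured 14.9, 13.9, 15.2 and 16.7 CPM in shRELA and 628, 689, 479 and 507 CPM in shRELB (log2 fold change -5.24 ± 0.24 SE, FDR 2.82e-18). miR-125b-2-3p, which is specific to the hairpin of the chromosome 21 host, was at 0, 0.191, 0.952 and 0.165 CPM in shRELA and 12, 19.4, 14.6 and 19.9 CPM in shRELB. This arm separates that locus from the one on chromosome 11 (MIR125B1, chr11:122099757-122099844, minus strand, in an intron of MIR100HG). Also in MIR100HG, miR-100-5p (chr11:122152229-122152308, minus strand), which shares its seed with miR-99a-5p, was at 0.661, 0.572, 0.952 and 0.331 CPM in shRELA and 0.669, 0.468, 0.685 and 0.403 CPM in shRELB. Those levels overlap near the floor of counting, with a log2 fold change of 0.14 ± 0.97 (SE, FDR 0.956), and both lie under the 3.05 to 5.64 CPM of shNeg. The other seed relatives, miR-99b-5p and miR-125a-5p, had log2 fold changes of 0.36 and 0.26 and were not called, so 2 of 5 guide strands of the miR-99, miR-100 and miR-125 families were lower and none was higher, with a median of 0.14.

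The adherent shNeg libraries place these levels. miR-99a-5p was at 56, 46.1, 48.2 and 44.7 CPM and miR-125b-5p at 522, 463, 529.7 and 504 CPM in shNeg, so the shRELB levels were close to those of the control. Against shNeg, the log2 fold change of miR-125b-5p was -5.05 ± 0.24 (SE) in shRELA (FDR 6.91e-18) and 0.19 ± 0.20 in shRELB (FDR 0.612). For let-7c-5p, at 805, 823, 831 and 791 CPM in shNeg, the same values were -1.57 ± 0.18 (FDR 2.00e-08) and 0.51 ± 0.17 (FDR 0.0464). In all, 3.76% of the miRNAs tested were called in shRELA against shNeg and 7.07% in shRELB against shNeg. Those comparisons share the shNeg libraries with each other and the knockdown libraries with the direct comparison, so their values are given side by side only.

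**Figure D2:**
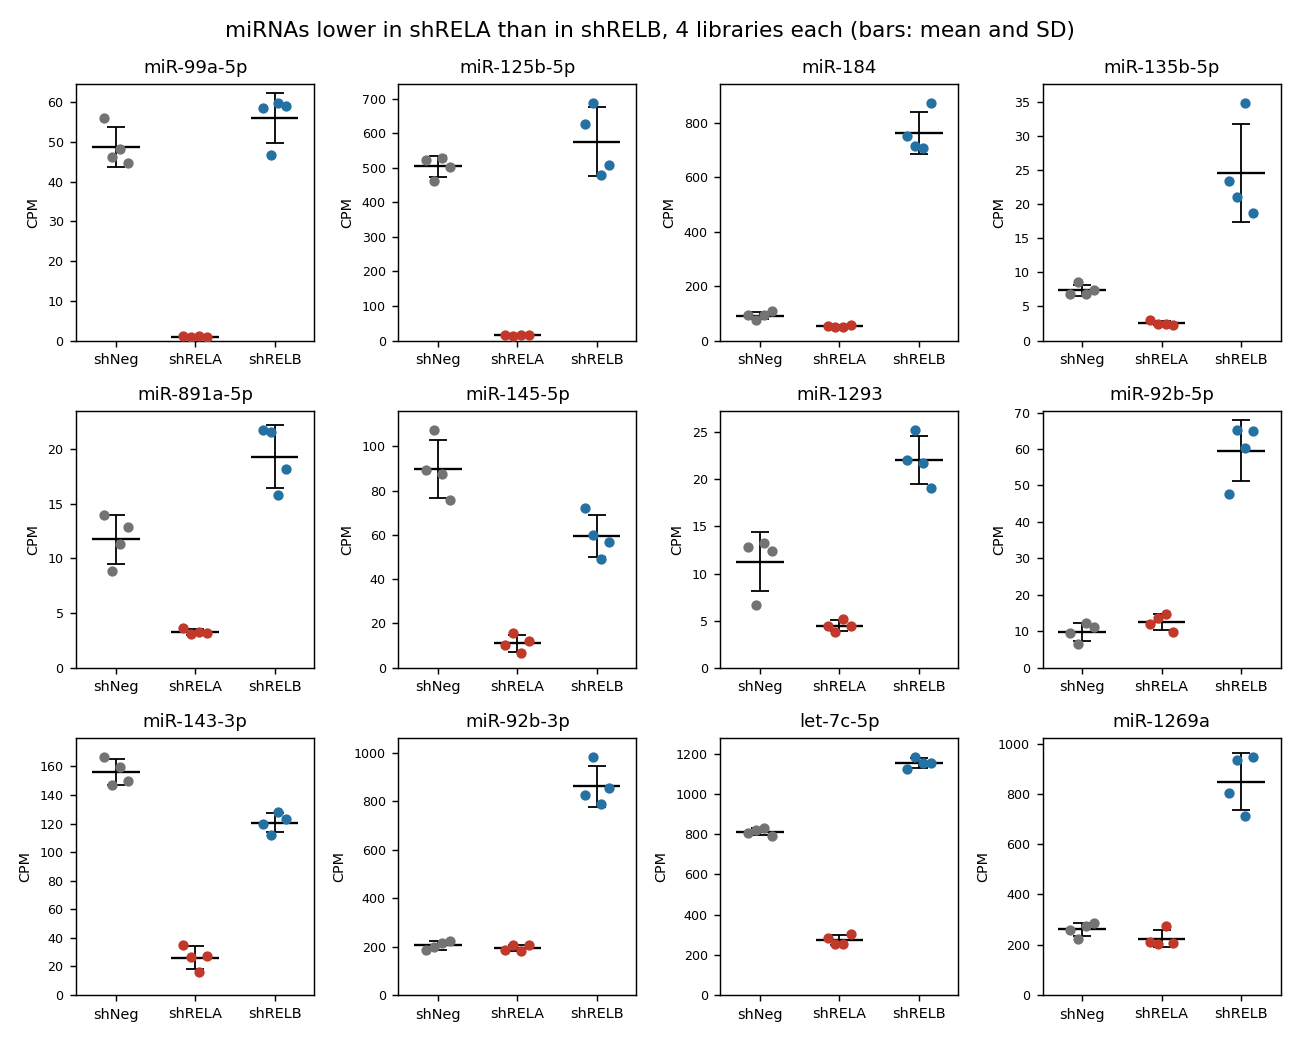
CPM (y axis, from 0) of the 12 miRNAs with the lowest log2 fold changes among the called, non-overlapping miRNAs that averaged 10 CPM or more, in the 4 adherent libraries each of shNeg (grey), shRELA (red) and shRELB (blue), with lines for the mean and bars for the SD. For miR-99a-5p, miR-125b-5p, miR-145-5p and miR-143-3p the shRELB libraries sit near shNeg, while for miR-184, both arms of miR-92b and miR-1269a it is shRELA that sits near shNeg.

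Other miRNAs were lower in shRELA than in shRELB with the larger departure from shNeg on the shRELB side. miR-184, an epithelial miRNA known from lens and cornea (chr15:79209788-79209871, plus strand), measured 53.7, 50.8, 48.2 and 58.7 CPM in shRELA, 750.4, 714, 707 and 873 CPM in shRELB and 93, 74.1, 92.2 and 107 CPM in shNeg. It was 14.4-fold lower in shRELA (log2 fold change -3.85 ± 0.22 SE, FDR 1.04e-15). Against shNeg its log2 fold change was -0.79 ± 0.20 in shRELA and 3.05 ± 0.21 in shRELB. miR-92b-3p, a relative of the growth-promoting miR-17-92 cluster (chr1:155195177-155195272, plus strand, in an exon of THBS3-AS1), was at 185, 206, 179.6 and 205 CPM in shRELA, 826, 984, 789.9 and 854 CPM in shRELB and 184, 197, 213 and 224 CPM in shNeg. Its log2 fold change between the knockdowns was -2.15 ± 0.17 (SE, FDR 7.32e-12), and the other arm, miR-92b-5p, gave -2.24 ± 0.39 (SE, FDR 3.78e-05). miR-1269a (chr4:66276824-66276928, plus strand) gave -1.92 ± 0.23 (SE, FDR 7.43e-08), with 203 to 274 CPM in shRELA, 712 to 948 CPM in shRELB and 224 to 286 CPM in shNeg. For these miRNAs the shRELA and shNeg means were within 2-fold of each other.

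miR-891a-5p (chrX:146027794-146027872, minus strand) and miR-1293 (chr12:50234142-50234212, minus strand, in an intron of LIMA1) were between these patterns. miR-891a-5p measured 3.63, 3.05, 3.24 and 3.14 CPM in shRELA, 21.8, 21.5, 15.8 and 18.1 CPM in shRELB and 13.9, 8.8, 11.3 and 12.9 CPM in shNeg, with a log2 fold change between the knockdowns of -2.55 ± 0.31 (SE, FDR 7.43e-08). miR-1293 measured 4.46, 3.82, 5.14 and 4.47 CPM in shRELA and 22.1, 25.3, 21.7 and 19.1 CPM in shRELB (log2 fold change -2.29 ± 0.29 SE, FDR 1.42e-07). In both, all shRELA libraries lay below and all shRELB libraries above every shNeg library.

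The miR-135 family held 1 member in each direction. miR-135a-5p and miR-135b-5p share the seed AUGGCUU. miR-135b-5p (chr1:205448302-205448398, minus strand, in an intron of LEMD1 and of BLACAT1) measured 2.97, 2.48, 2.48 and 2.32 CPM in shRELA and 23.4, 21, 34.9 and 18.7 CPM in shRELB, with a log2 fold change of -3.24 ± 0.37 (SE, FDR 3.76e-08). miR-135a-5p (one of its hairpins at chr3:52294219-52294308, minus strand) measured 24.3, 11.8, 15.4 and 30.3 CPM in shRELA and 3.85, 3.51, 4.79 and 3.83 CPM in shRELB, with a log2 fold change of 2.34 ± 0.45 (SE, FDR 1.47e-04). Both groups were thus separate for each member, in opposite orders. In shNeg, miR-135b-5p was at 6.8 to 8.53 CPM and miR-135a-5p at 14.4 to 31.5 CPM. The calls of this seed thus went in both directions, and the 3p arms were not called, at -0.50 for miR-135a-3p and -2.75 for miR-135b-3p.

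The miRNAs called mesenchymal because fibroblasts and smooth muscle are rich in them were lower in shRELA in 5 of 9 tested members, of which miR-199a-3p and miR-199b-3p are a single measurement, and higher in none, with a median log2 fold change of -1.81 against -0.02 for all miRNAs tested. miR-143 (chr5:149428918-149429023) and miR-145 (chr5:149430646-149430733), both on the plus strand of CARMN and known as repressors of smooth muscle proliferation, had 3 of 4 arms lower. miR-143-3p measured 35.2, 26.3, 15.8 and 27 CPM in shRELA and 119.6, 112, 128 and 123 CPM in shRELB, and miR-145-5p 10.1, 15.8, 6.67 and 11.9 and 72.3, 59.9, 49.1 and 57 CPM. The log2 fold changes were -2.21 ± 0.26 (SE, FDR 4.68e-08) and -2.42 ± 0.32 (SE, FDR 4.52e-07). In shNeg they were at 147 to 167 and 75.8 to 107 CPM, above shRELB in each library. miR-199a-3p, whose counts are those of miR-199b-3p, measured 71.7, 44.8, 45.3 and 71.3 CPM in shRELA and 164, 147, 159 and 161 CPM in shRELB (log2 fold change -1.43 ± 0.24 SE, FDR 2.26e-05). The call for miR-143-5p, with at most 4.02 CPM in shRELB, was lost on leaving out any 1 of the 8 libraries, at log2 fold changes of -2.22 to -2.003. The whole list summed to 119 to 203 CPM in shRELA, 490 to 549 CPM in shRELB and 425 to 504 CPM in shNeg.

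The miR-200 family, which keeps epithelial cells epithelial by repressing ZEB1 and ZEB2, was also lower in shRELA. Of 8 members tested 4 were called lower and none higher, and the median log2 fold change was -1.70. miR-200c-3p (chr12:6963699-6963766, plus strand, in an intron of MIR200CHG), its most abundant member here, measured 2537, 1869.8, 2151 and 2639 CPM in shRELA and 6786, 7940.5, 8719 and 8235 CPM in shRELB (log2 fold change -1.78 ± 0.20 SE, FDR 3.76e-08). The 4 shNeg libraries lay between them, at 3129.9 to 3264 CPM. miR-141-3p of the same host (chr12:6964097-6964191) gave -1.27 ± 0.26 (SE, FDR 3.51e-04), from 62.8 to 156 CPM in shRELA to 232 to 286 CPM in shRELB. From the cluster on chromosome 1, miR-200b-3p (chr1:1167104-1167198, plus strand) gave -1.65 ± 0.33 (SE, FDR 2.82e-04), a call that limma on log2(CPM + 1) did not make, and miR-200a-3p gave -1.77 ± 0.44 (SE, FDR 0.0034). That last call was lost without shRELA replicate 2 or 3 or shRELB replicate 2 (log2 fold changes between -2.47 and -1.53 over the 8 fits). In the 8 libraries miR-200b-3p was at 10.3 to 38.2 CPM and miR-200a-3p at 1.34 to 12.2 CPM, far below miR-200c-3p and miR-141-3p, their near-identical relatives from chromosome 12. The part of misassigned reads of these relatives in the 2 chromosome 1 calls was not tested. The 4 members not called, miR-429 among them, were all under 10 CPM in the 8 libraries, with log2 fold changes of -1.85 to -1.33.

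miRNAs of pluripotent cells followed the same direction. The miR-302 hairpins, from miR-302d (chr4:112648004-112648071) to miR-302b (chr4:112648485-112648557) on the minus strand in exons of MIR302CHG, are known as markers of embryonic stem cells. Of 8 tested members of the miR-302, miR-367 and miR-371 to miR-373 families, 5 were lower in shRELA and none higher, with a median of -1.68. miR-302a-5p measured 124, 74.2, 59.6 and 98.3 CPM in shRELA, 317, 419.6, 286 and 257 CPM in shRELB and 49.9, 36.3, 51.3 and 42.5 CPM in shNeg. It stood in the order shNeg, shRELA, shRELB without overlap between the 3 groups, and the log2 fold change between the knockdowns was -1.84 ± 0.22 (SE, FDR 5.66e-08). miR-302d-3p, miR-302a-3p and miR-302b-3p, which share the seed AAGUGCU, gave -1.42 ± 0.33, -1.59 ± 0.41 and -1.41 ± 0.35. Their calls were less firm: leaving out 1 library ended the call for miR-302a-3p in 5 of 8 fits, for miR-302b-3p in 4 and for miR-302d-3p in 1 (without shRELA replicate 2). The call for miR-302c-5p, at most 5.48 CPM in any of the 8 libraries, was lost in all 8. Summed, the list gave 84.0 to 157 CPM in shRELA, 330 to 506 CPM in shRELB and 57.6 to 66.2 CPM in shNeg.

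Among the miRNAs higher in shRELA with a mean of 10 CPM or more, the largest differences were in both arms of miR-215, which belongs with miR-192 and miR-194 to a group whose transcription p53 is known to raise. miR-215 (chr1:220117853-220117962) and miR-194-1 (chr1:220118157-220118241) lie together on the minus strand of chromosome 1, and miR-192 (chr11:64891137-64891246) and miR-194-2 (chr11:64891355-64891439) on the minus strand of chromosome 11, in exons of MIR194-2HG. miR-215-5p measured 149, 114, 63.6 and 184 CPM in shRELA and 10.9, 9.82, 28.6 and 14.1 CPM in shRELB (log2 fold change 3.0004 ± 0.37 SE, FDR 1.42e-07). miR-215-3p gave 3.47 ± 0.48 (SE, FDR 1.04e-06), miR-194-5p, from both loci, 2.13 ± 0.29 (SE, FDR 9.16e-07), and miR-192-5p 1.63 ± 0.23 (SE, FDR 1.52e-06). For miR-194-5p the libraries held 628, 596, 318 and 810.0 CPM in shRELA and 145, 139, 127 and 126 CPM in shRELB, and for miR-192-5p 374, 317, 226 and 456 and 114, 88.2, 138 and 102 CPM. The shRELA libraries were spread over more than 2-fold, and the lowest of them still lay above the highest shRELB library. In shNeg, miR-194-5p was at 527 to 676 CPM and miR-192-5p at 343 to 385 CPM, both within the range of shRELA. Of 9 tested p53-linked miRNAs 4 were higher in shRELA and none lower, with a median of 1.37 and a lowest member at -1.70. Summed, the list ran the other way, at 3588 to 5602 CPM in shRELA and 5366 to 7138 CPM in shRELB, with miR-34a-5p as its most abundant member. miR-34a-5p, another miRNA that p53 is known to raise, measured 3898, 3080.2, 2954 and 4099 CPM in shRELA and 6556, 6885, 5361 and 5111 CPM in shRELB and had a log2 fold change of -0.77 ± 0.20 (FDR 0.0052), short of a 2-fold change, and was called lower only with library totals in place of TMM.

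**Figure D3:**
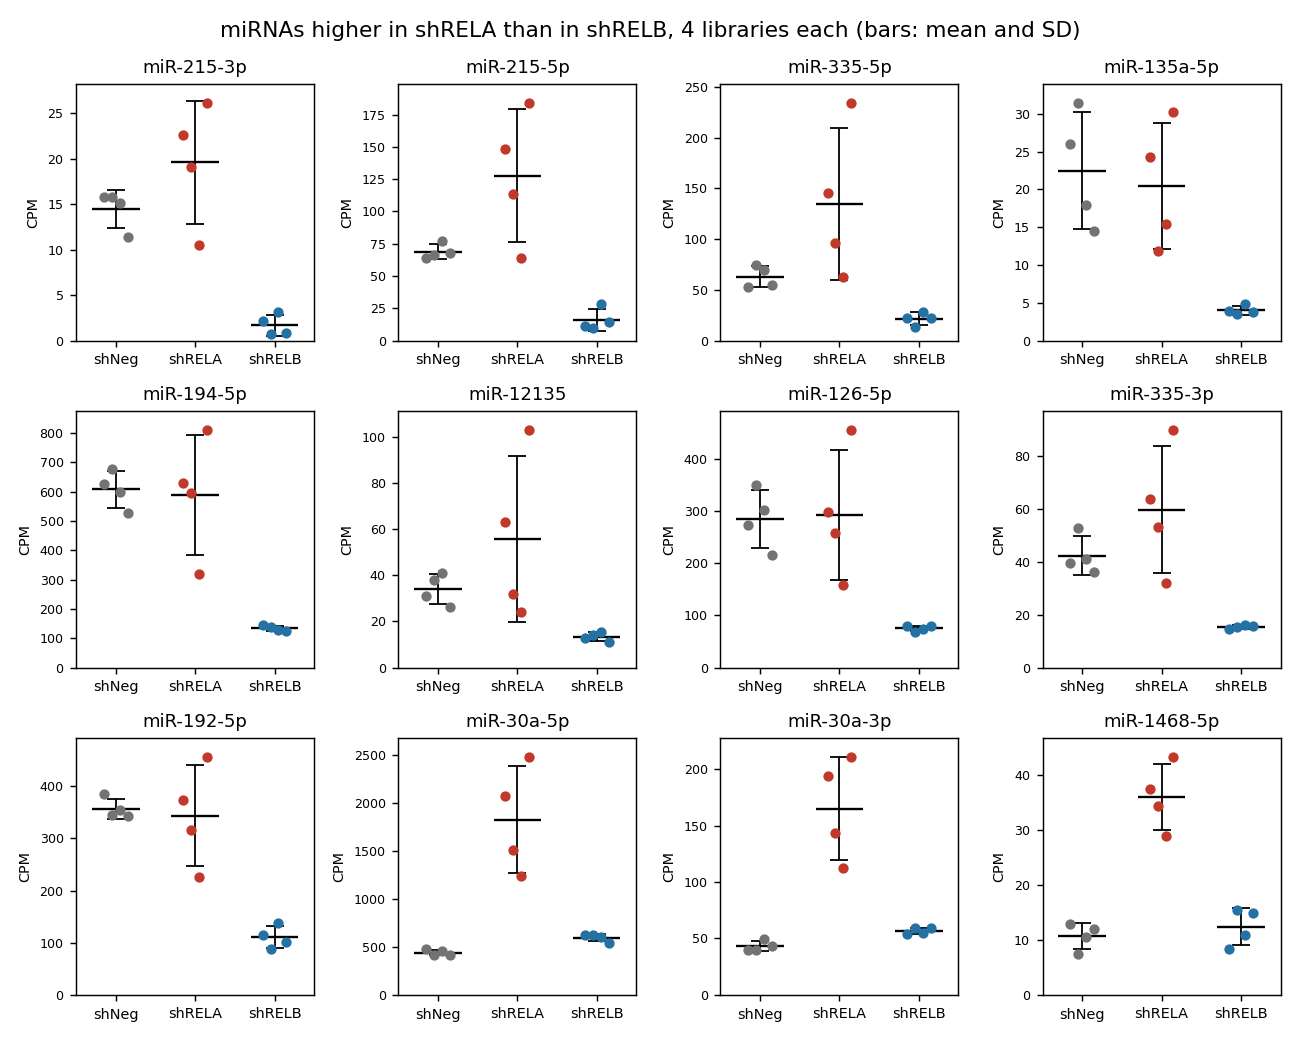
CPM (y axis, from 0) of the 12 miRNAs with the highest log2 fold changes among the called, non-overlapping miRNAs that averaged 10 CPM or more, in the 4 adherent libraries each of shNeg (grey), shRELA (red) and shRELB (blue), with lines for the mean and bars for the SD. In 9 of the 12 panels every shRELB library sits below every shNeg library, whereas for both arms of miR-30a and for miR-1468-5p shRELB sits near shNeg and shRELA above both.

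miR-335 (chr7:130496111-130496204, plus strand) lies in an intron of the imprinted gene MEST, and is known as a suppressor of metastasis in breast cancer. miR-335-5p measured 145, 96.2, 62.7 and 234 CPM in shRELA, 21.8, 13.6, 28.6 and 22.2 CPM in shRELB and 52.9, 74.1, 69.9 and 54.8 CPM in shNeg. Its log2 fold change was 2.64 ± 0.46 (SE, FDR 4.51e-05), with every shRELA library above every shRELB library. miR-335-3p gave 1.95 ± 0.39 (SE, FDR 2.95e-04). Neither arm was called by limma on log2(CPM + 1). miR-126 (chr9:136670602-136670686, plus strand, in an intron of EGFL7), known for its part in endothelial cells, was higher in both arms: miR-126-3p measured 6338, 6313, 3836 and 8827 CPM in shRELA and 2348, 2093, 2404 and 2392 CPM in shRELB (log2 fold change 1.45 ± 0.21 SE, FDR 2.94e-06). The 5p arm gave 1.95 ± 0.30 (SE, FDR 5.27e-06). shNeg, at 6265 to 7358 CPM of the 3p arm, lay within the shRELA range.

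Both arms of miR-30a were higher in shRELA with shRELB at the lower level. miR-30a (chr6:71403551-71403621, minus strand, in an intron of LINC00472) is known for repressing the autophagy gene BECN1. miR-30a-5p measured 2082, 1509, 1243 and 2484 CPM in shRELA, 628, 620.3, 601 and 539.9 CPM in shRELB and 474, 417, 453 and 416 CPM in shNeg, with a log2 fold change between the knockdowns of 1.62 ± 0.20 (SE, FDR 1.42e-07). The 3p arm measured 112 to 211 CPM in shRELA and 53.5 to 59.4 CPM in shRELB (log2 fold change 1.54 ± 0.20 SE, FDR 4.52e-07). Against shNeg miR-30a-5p gave 2.06 ± 0.20 in shRELA (FDR 1.88e-09) and 0.44 ± 0.20 in shRELB (FDR 0.148). No other member of the 11 tested in the miR-30 family was called. miR-30c-5p came closest to the fold threshold among those that passed the FDR, at 0.98 ± 0.25 (FDR 0.00401). miR-1468-5p, from 28.9 to 43.4 CPM in shRELA to 8.37 to 15.4 CPM in shRELB, gave 1.54 ± 0.39 (SE, FDR 0.00378), a call lost without shRELA replicate 1 or 4 or shRELB replicate 1 or 3 (1.40 to 1.49). The call for miR-12135 (chr15:73299910-73299979, plus strand, in an intron of NEO1), at 2.04 ± 0.53 (SE, FDR 0.0046), was lost in 6 of 8 such fits, with log2 fold changes of 1.57 to 2.30 over all 8.

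A cluster in an intron of GABRA3 on the X chromosome was higher in shRELA in all 4 of its tested arms. miR-105-1 (chrX:152392219-152392299), miR-767 (chrX:152393421-152393529) and miR-105-2 (chrX:152394412-152394492) lie on its minus strand, and miR-105 is known as a miRNA that is switched on in some tumors together with germline genes. miR-105-5p measured 165, 128, 161 and 153 CPM in shRELA and 55.4, 59.9, 54.5 and 58.8 CPM in shRELB (log2 fold change 1.41 ± 0.19 SE, FDR 5.13e-07), and miR-767-5p 313, 309, 337 and 327 and 126, 134, 119 and 131 CPM (log2 fold change 1.34 ± 0.16 SE, FDR 7.43e-08). In shNeg they were at 175 to 197 and 326 to 382 CPM, on the shRELA side. The 3p arms, under 11 CPM in all 12 libraries, were called too, but miR-767-3p lost its call on leaving out any of the 8 libraries (log2 fold changes of 1.67 to 2.05) and miR-105-3p on leaving out 5 of them (1.72 to 2.17 in those 5).

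The pair miR-224 (chrX:151958578-151958658) and miR-452 (chrX:151959628-151959712), in exons of GABRE on the minus strand, went the other way. miR-224-5p, which is known to respond to NF-κB, measured 264, 306, 247 and 340.2 CPM in shRELA, 760.3, 672, 607 and 634 CPM in shRELB and 2427, 2157, 2309.9 and 2293 CPM in shNeg. miR-452-5p measured 3.63, 2.48, 1.52 and 4.3 CPM in shRELA, 11, 10.3, 15.8 and 11.3 CPM in shRELB and 35.2, 25.6, 28.9 and 31.3 CPM in shNeg. For both the order was shRELA, shRELB, shNeg, without overlap between any of the 3 groups. The log2 fold changes between the knockdowns were -1.21 ± 0.20 (SE, FDR 2.26e-05) for miR-224-5p and -1.997 ± 0.44 (SE, FDR 8.36e-04) for miR-452-5p. Against shNeg, miR-224-5p was called lower in both knockdowns, at -2.99 ± 0.21 in shRELA (FDR 8.17e-13) and -1.78 ± 0.20 in shRELB (FDR 4.56e-08). miR-452-5p was called lower in shRELA, at -3.32 ± 0.44 (FDR 7.75e-07), while shRELB missed the threshold at -1.32 ± 0.40 (FDR 0.0229).

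Of 17 tested miRNAs linked to NF-κB, as inducers, targets or feedback regulators, 1 was higher and 3 were lower in shRELA, and the median log2 fold change was -0.05. For comparison, 10.9% of all miRNAs tested were called, and 64 of the 317 that averaged 10 CPM or more. miR-146a-5p (chr5:160485352-160485450, plus strand, in an exon of MIR3142HG), a feedback inhibitor that represses IRAK1 and TRAF6, measured 23083, 18628, 18467 and 23788 CPM in shRELA and 49072, 45881, 48893 and 46483 CPM in shRELB, with 34252, 29056, 32466 and 31708 CPM in shNeg. It was 2.27-fold lower in shRELA (log2 fold change -1.18 ± 0.17 SE, FDR 2.49e-06), and the shNeg libraries lay between the knockdowns. miR-146b-3p was lower (-1.54 ± 0.28 SE, FDR 7.49e-05), while miR-146b-5p, with the seed of miR-146a-5p, had an FDR of 0.00576 at a log2 fold change of -0.78 ± 0.21, short of 2-fold. miR-155-5p, which NF-κB is known to raise in immune cells, was at 38.8, 50.9, 45.9 and 42.2 CPM in shRELA, 67.6, 78.4, 73.1 and 82.4 CPM in shRELB and 7.3, 9.33, 9.68 and 8.77 CPM in shNeg. The 2 knockdowns did not overlap, but the difference missed the threshold (log2 fold change -0.76 ± 0.29 SE, FDR 0.0547). miR-9-5p, which represses NFKB1, was the member higher in shRELA, at 1.14 ± 0.27 (SE, FDR 0.00203), a call lost without shRELA replicate 1 or 4 or with library totals. miR-21-5p gave 0.66 ± 0.22 (FDR 0.0256).

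The let-7 family was divided. Of 9 guide strands with the seed GAGGUAG, let-7d-5p and let-7f-5p were higher in shRELA, let-7c-5p was lower, and 6 were not called, with a median of 0.57. let-7f-5p measured 30701, 25229, 20910.2 and 33653 CPM in shRELA and 12382, 10066, 13086 and 11853 CPM in shRELB (log2 fold change 1.22 ± 0.20 SE, FDR 2.02e-05), and let-7d-5p 9334, 8853, 7915 and 10728 and 4727, 4399, 3892 and 4194 CPM (log2 fold change 1.10 ± 0.20 SE, FDR 7.48e-05). These 2, which lie together on chromosome 9 (let-7f-1 at chr9:94176347-94176433, let-7d at chr9:94178834-94178920, plus strand), were not called with library totals, where the log2 fold changes were 0.96 and 0.86. let-7c-5p, from the chromosome 21 cluster, was the member called in the other direction, and it kept its call at every setting tried. let-7b-5p was at 287 to 308 CPM in shRELA and 187 to 230.1 CPM in shRELB, against 1156 to 1334 CPM in shNeg, with a log2 fold change between the knockdowns of 0.54 ± 0.18 (SE, FDR 0.0226). After TMM scaling the 9 miRNAs summed to 266984 to 339112 CPM in shRELA and 228625 to 244316 CPM in shRELB. The TMM factors, which divide such values, were 0.730 to 0.994 in shRELA and 0.948 to 1.09 in shRELB, and the sums were not computed with library totals.

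**Figure D4:**
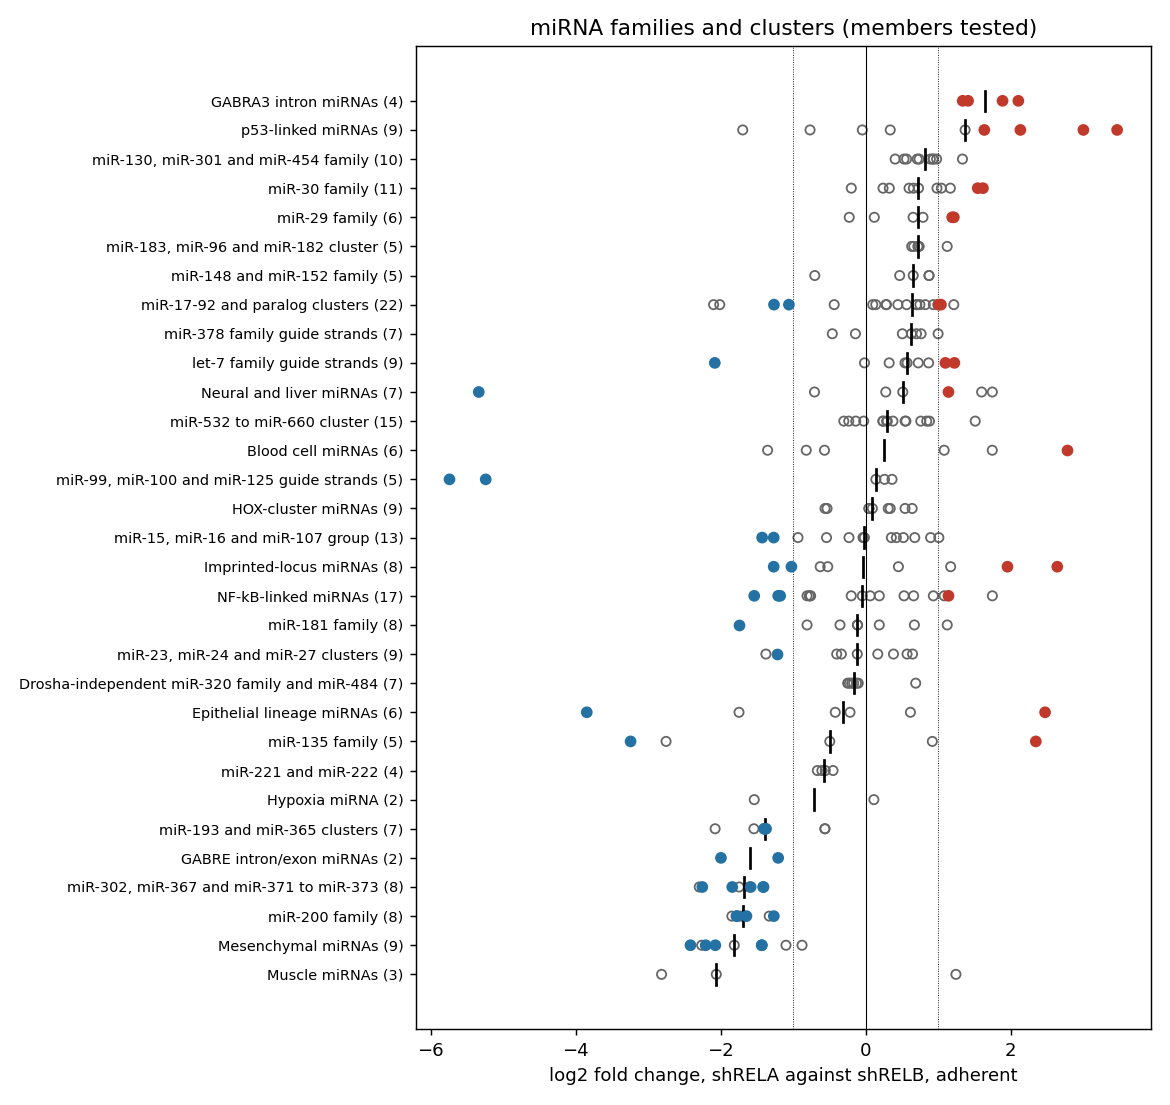
Log2 fold change, shRELA against shRELB in adherent cells (x axis), of each tested member of 31 miRNA families, clusters and marker lists (rows, with the number tested), where filled points were called (red higher, blue lower in shRELA), open points were not, and black ticks are medians. The mesenchymal, miR-200, miR-302 and GABRE rows have medians of -1.81 to -1.60 and the GABRA3 row one of 1.65, while the miR-135, let-7, miR-17-92 and imprinted-locus rows are among those with called members on both sides. The muscle row, with 3 tested and none called, has a median of -2.06.

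Clusters with paralogs also held members on both sides. Of 22 tested arms of miR-17-92 and its paralog clusters, miR-20a-5p (1.04 ± 0.28) and miR-106a-5p (1.01 ± 0.27) were higher, and miR-20b-5p (-1.06 ± 0.27) and miR-363-3p (-1.27 ± 0.27) were lower in shRELA. miR-106a, miR-20b and miR-363 are neighbors on the X chromosome (miR-106a at chrX:134170198-134170278, miR-363 at chrX:134169378-134169452, minus strand). Leaving out 1 library ended the calls for miR-20a-5p and miR-106a-5p in 6 of 8 fits each and for miR-20b-5p in 4, and miR-363-3p kept its call in all 8, at -1.42 to -1.17. At imprinted loci, besides miR-335, both arms of miR-483, the miRNA of the growth factor gene IGF2, were lower. miR-483-3p measured 12931, 14066, 13331 and 13942 CPM in shRELA and 28259.7, 34255, 22853 and 25113 CPM in shRELB (-1.03 ± 0.19 SE, FDR 7.47e-05), a call lost without shRELB replicate 2 (-0.90), and miR-483-5p gave -1.27 ± 0.32 (SE, FDR 0.00394), a call lost in 5 of 8 fits (-1.42 to -1.15).

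Further called members of the lists were fewer. In the miR-29 family, which represses collagen genes, miR-29a-3p (chr7:130876747-130876810, minus strand) measured 22108, 21543, 14259 and 30836 CPM in shRELA and 9839, 10977, 8941 and 8503 CPM in shRELB (1.21 ± 0.19 SE, FDR 6.35e-06), and was not called with library totals (0.95). miR-29b-3p gave 1.19 ± 0.29 (SE, FDR 0.00241), with 1 shRELA library inside the shRELB range. Its call was lost without shRELA replicate 1 or 4 or shRELB replicate 1 (0.96 to 1.11), with library totals and with limma, and 4 of 6 members were not called. In the miR-193 and miR-365 clusters 3 of 7 arms were lower: miR-193b-3p (-1.39 ± 0.26 SE, FDR 1.25e-04), miR-193b-5p and miR-193a-5p, the last 2 with calls lost in 5 and 4 of 8 fits with 1 library left out. miR-181a-2-3p (-1.75 ± 0.19 SE, FDR 1.34e-08) was lower, at 61.4 to 70.8 CPM in shRELA and 211 to 225 CPM in shRELB, while miR-181a-5p, made from this hairpin and another, was not called (-0.36). miR-503-3p (-1.43 ± 0.24 SE, FDR 2.78e-05) and miR-424-3p, a passenger strand from the same X-linked cluster, were lower, and so was miR-27a-5p, and the calls for miR-424-3p and miR-27a-5p were lost on leaving out any library. The other arms of these hairpins were not called, at -0.93 for miR-503-5p, -0.02 for miR-424-5p and -0.34 for miR-27a-3p. miR-204-5p, an epithelial miRNA in an intron of TRPM3 (chr9:70809975-70810084, minus strand), was higher, at 16.4, 16.4, 8.38 and 19.4 CPM in shRELA and 3.18, 2.81, 2.4 and 2.42 CPM in shRELB (2.47 ± 0.49 SE, FDR 2.48e-04), a call that limma did not make (2.07).

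No member was called in the lists of miR-221 and miR-222 (4 tested), of the miR-183 to miR-182 cluster (5), the miR-532 to miR-660 cluster (15), the HOX clusters (9), miR-130, miR-301 and miR-454 (10), miR-148 and miR-152 (5), miR-378 (7) and miR-320 with miR-484 (7), or for the 2 arms of miR-210. Their medians ran from -0.71 for miR-210 and -0.58 for miR-221 and miR-222 to 0.81 for miR-130, miR-301 and miR-454, the last with all 10 members positive. miR-221-3p, an oncogenic miRNA that represses CDKN1B, was at 13177 to 15678 CPM in shRELA and 20129.9 to 23009.9 CPM in shRELB (-0.56 ± 0.19 SE, FDR 0.0284).

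Markers of other cell types were read alongside. Of 6 tested blood cell miRNAs only miR-451a, the red cell miRNA, was called, at 3.8, 2.29, 3.05 and 6.29 CPM in shRELA and 0.167, 0.936, 0.514 and 0.604 CPM in shRELB, and its call was lost in 5 of 8 fits with 1 library left out (2.44 to 3.11). miR-142-3p and miR-223-3p, which define blood cells, stayed under 2 CPM in the 8 libraries, and the list summed to 26.3 to 42.9 CPM in shRELA and 45.9 to 56.8 CPM in shRELB. Muscle miRNAs, with 3 tested, had no call and summed to at most 7.03 CPM. Their median log2 fold change was -2.06, with members from -2.82 to 1.24. In the list of 7 tested neural and liver miRNAs, miR-9-5p was higher and miR-124-3p was lower. miR-124-3p had 0 counts in all 4 shRELA libraries against 27 counts in shRELB, at least 2.47-fold lower at a floor of 3 counts per library, and its call was lost in 4 of 8 fits. That list was dominated by miR-122-5p, the liver miRNA, at 19193 to 29403 CPM in shRELA and 18226 to 21836 CPM in shRELB (0.28 ± 0.16). Among the blood, muscle, mesenchymal and neural and liver lists, the mesenchymal one thus had more than 1 call in a direction and the others did not. The part of other cells in these differences was not tested, and in bulk samples fewer cells of a type and less RNA per cell cannot be told apart.

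The 15 candidates that the study names from its miR-seq, all tested here, were chosen by the study on these same samples, so their directions are no independent evidence. In the direct comparison 6 were higher in shRELA (miR-105-5p, miR-105-3p, miR-30a-5p, miR-30a-3p, miR-335-5p and miR-552-5p) and 3 lower (miR-200c-3p, miR-224-5p and miR-452-5p). miR-552-5p (chr1:34669599-34669694, minus strand) was at 6.11, 3.63, 3.24 and 5.79 CPM in shRELA and 0.837, 0.234, 0.685 and 0 CPM in shRELB (3.25 ± 0.68 SE, FDR 5.55e-04), not called by limma. The other 6, let-7b-5p, miR-34a-5p, miR-100-5p, miR-155-5p, miR-205-5p and miR-675-5p, were not called. miR-205-5p, an epithelial miRNA, was at 564, 521, 583 and 635 CPM in shRELA and 717, 774, 622 and 567 CPM in shRELB against 1532 to 1669.9 CPM in shNeg, so that the knockdowns overlapped below every shNeg library (log2 fold change between them -0.22 ± 0.18 SE, FDR 0.442). miR-675-5p had 3 counts in shRELA and 4 in shRELB.

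The 28 called miRNAs outside the naming rule and the lists comprised 12 higher, at log2 fold changes of 1.01 to 3.66, and 16 lower, at -5.57 to -1.09. Of these, 8 and 12 had a mean under 10 CPM.

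Called arms of a hairpin and called members of a cluster mostly went in the same direction. Of 198 hairpins with both arms tested, 43 had a called arm. In 14 both arms were called, all 14 in the same direction, and in 26 of the 29 with 1 called arm the other arm had the same sign. miR-29b-3p is counted there once for each of its hairpins, and the share with the same sign over all 198 was not computed. Grouping hairpins within 10000 bases on 1 strand, 15 clusters held 2 or more called miRNAs. In 14 of them the calls had 1 direction, the exception being the X-linked miR-106a to miR-363 cluster. These counts are of mature miRNAs: in the miR-193b cluster and in a miR-3180 cluster the called ones were both arms of 1 hairpin. miR-194-5p is counted in the clusters of chromosomes 1 and 11. Members not called could have the other sign, as miR-450b-5p (0.97) beside miR-503-3p and miR-424-3p. The share with 1 sign over all clusters was not computed. Of 11 seeds with 2 or more called miRNAs, 8 were called in 1 direction, and the exceptions were the seeds of let-7, of miR-135 and of miR-17 with miR-20. Among the 8 were the seeds of miR-199a-3p with miR-199b-3p and of miR-3180-3p with miR-3180, pairs with identical counts that could not differ. Members of a cluster or seed are not independent, and no test was made of these counts. Sequences were matched for 795 of the 905 miRNAs. The median GC content was 40.9% in the 35 with a sequence among those higher in shRELA, 52.4% in 57 of those lower, and 54.5% in all 795. Across the 795 miRNAs Spearman's rho between log2 fold change and GC content was -0.26, and it was -0.26 among the 285 that averaged 10 CPM or more. These are descriptions across miRNAs that share 8 libraries, and the part of base composition in the differences was not tested.

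The same 2 knockdowns were compared as spheroids, in libraries that share no sample with the adherent ones but were made from the same lines. There 60 of 905 miRNAs (6.63%) were called, 25 higher (2.76%) and 35 lower (3.87%) in shRELA. Of these, 31 of the lower miRNAs were also called lower in adherent cells, which is 51.7% of the 60 adherent and 88.6% of the 35 spheroid calls. For the higher miRNAs the number was 11, or 28.2% of 39 and 44% of 25. Of the 99 adherent calls, 92 had the same sign in spheroids, against 67.6% of all 905. Spearman's rho between the log2 fold changes of the 2 cultures was 0.42 over all 905 and 0.72 over the 317 averaging 10 CPM or more in the adherent libraries, given without a test. The median spheroid log2 fold change was -1.26 for the 60 miRNAs lower in adherent shRELA and 1.03 for the 39 that were higher.

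The chromosome 21 cluster, miR-135b-5p, the miR-302 cluster and the GABRA3 cluster kept their directions in spheroids. miR-125b-5p measured 29.1, 17.3, 13.9 and 15.2 CPM in shRELA spheroids and 273, 281, 327 and 442 CPM in shRELB spheroids, a log2 fold change of -4.14 ± 0.24 (SE, FDR 2.07e-15). miR-99a-5p gave -3.32 ± 0.50 (SE, FDR 6.97e-06), let-7c-5p -1.999 ± 0.18 (SE, FDR 1.14e-10) and miR-135b-5p -4.17 ± 0.46 (SE, FDR 1.73e-08). miR-302a-5p, at 160.3, 185, 173 and 203 CPM in shRELA spheroids and 1395, 1350.3, 1496 and 1249 CPM in shRELB spheroids, gave -2.93 ± 0.22 (SE, FDR 3.84e-12), and miR-105-5p gave 2.46 ± 0.20 (SE, FDR 1.26e-11). Values in spheroids rest on fewer counts, since these libraries held 1861232 to 3580931 counts.

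The difference between the cultures was tested as an interaction, and 13 miRNAs (1.44%) were called, 2 with a more positive adherent log2 fold change and 11 with a more negative one. Of those named by rule, miR-509-3p had the lowest FDR. It was at 2.81, 2.48, 2.86 and 3.14 CPM in adherent shRELA and 7.36, 9.82, 6.68 and 8.66 CPM in adherent shRELB, but at 202, 152, 195 and 187 CPM in shRELA spheroids and 53.8, 56.2, 39.99 and 39.9 CPM in shRELB spheroids. Both contrasts were called, in opposite directions, at -1.51 ± 0.25 (SE, FDR 2.58e-05) and 1.95 ± 0.22 (SE, FDR 1.52e-08), and their difference was -3.46 ± 0.33 (SE, FDR 4.67e-09). miR-335-5p differed the other way: in spheroids it was at 7.97, 13.7, 3.58 and 6.46 CPM in shRELA and 16.3, 16.6, 12.6 and 13.2 CPM in shRELB, with a log2 fold change there of -0.91 ± 0.53 (SE, FDR 0.256) and a difference of 3.55 ± 0.69 (SE, FDR 0.00355). For miR-10b-5p, a HOX-cluster miRNA called in neither culture, the difference was 1.45 ± 0.30 (SE, FDR 0.00355). miR-184 (-1.37 ± 0.28 SE, FDR 0.00355) and miR-92b-3p (-1.21 ± 0.23 SE, FDR 0.00355) had negative log2 fold changes in both cultures and more so in adherent cells, although in spheroids miR-92b-3p, at -0.94, was short of 2-fold. For miR-205-5p the adherent and spheroid log2 fold changes were -0.22 and 0.99, with a difference of -1.21 ± 0.25 (SE, FDR 0.00355). miR-4683 (-2.38 ± 0.52 SE, FDR 0.00514), miR-187-3p (-1.49 ± 0.31 SE, FDR 0.00393) and miR-378a-3p (-1.15 ± 0.25 SE, FDR 0.00514) completed the named set. The number called here depended on single libraries, falling to 2 without spheroid shRELB replicate 3, to 7 without adherent shRELA replicate 2 or adherent shRELB replicate 1 or 2, and to 8 without spheroid shRELA replicate 1 or 4. It rose to 33 without spheroid shNeg replicate 1, a library outside this contrast that enters through the shared spread and the filter.

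**Figure D5:**
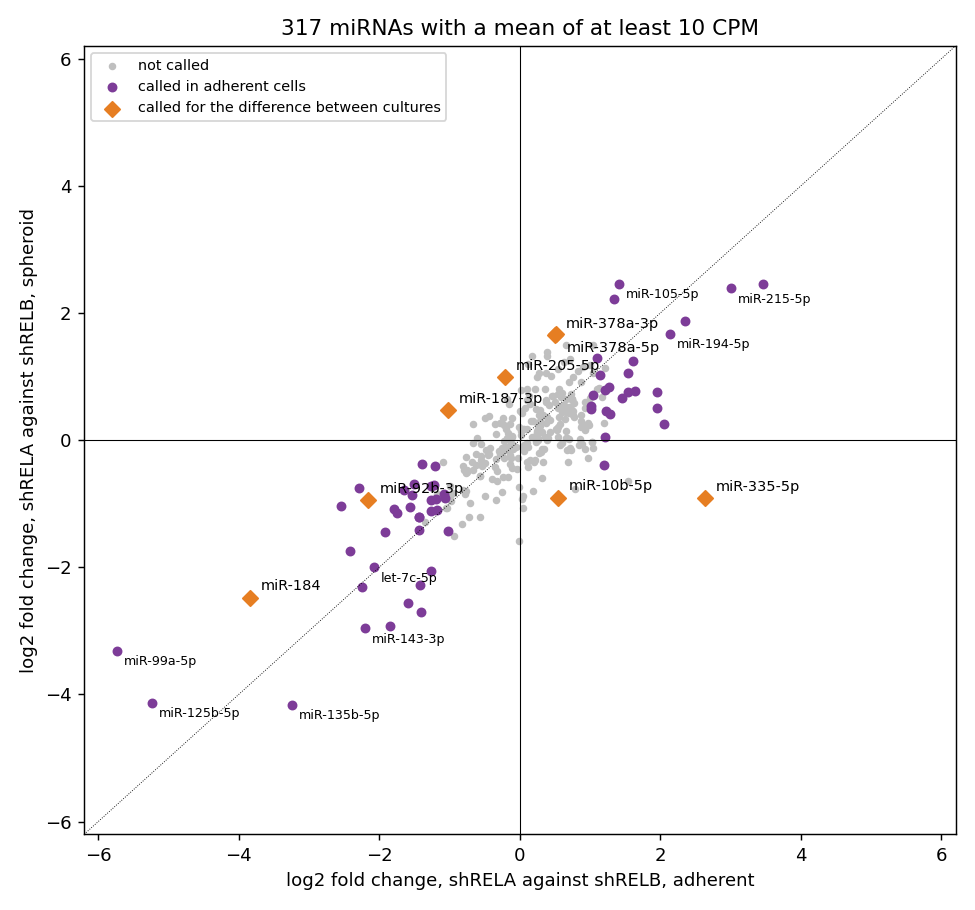
Log2 fold change, shRELA against shRELB, in adherent cells (x axis) and in spheroids (y axis) for the 317 miRNAs averaging 10 CPM or more in the 8 adherent libraries, with purple points called in adherent cells, orange diamonds called for the difference between cultures, and the dotted line marking equal values. miR-125b-5p, miR-99a-5p and miR-135b-5p sit in the lower left corner in both cultures, and miR-335-5p lies below the line at 2.64 and -0.91.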

How the data were processed

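Small RNA of 24 OV90 libraries was sequenced, and per the labels the libraries were made with the QIAseq miRNA kit. The authors trimmed adapters with Cutadapt, counted mature miRNAs with miRDeep2 and deposited estimated counts of 2656 mature miRNAs, unscaled. Fractional values made up 3.04% of those above 0 and fell on 84 miRNAs, and counts were rounded. The kit carries molecular identifiers, but whether reads were collapsed by them is not given in the sources used here, so counting intervals cover counting error only. The authors' processing notes name GRCh38, cutadapt and edgeR.

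From these counts, the 905 miRNAs that reached 1 CPM in 4 or more libraries (at least 99.98% of each library's counts) were tested with edgeR 4.0.16 in R 4.3.3. The quasi-likelihood fit took all 24 libraries with the 6 groups as its only term, so that all groups share 1 estimate of the spread. SE is the log2 fold change over the square root of the F statistic. Calls needed an FDR below 0.01 and a fold change above 2. Alternatives used DESeq2 1.42.0, limma 3.58.1 on log2(CPM + 1), other scalings, filters and sample sets, and each library left out. The tests were also run on simulated counts with 1 spread for all miRNAs and libraries. That setting is simpler than these data, so the run does not give their error rates here. Replicate numbers did not pair the samples and were not used as a block.

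Named miRNAs were the 12 highest and 12 lowest called ones without overlap at a mean of at least 10 CPM, their other arms and seed relatives, the called members of each list, all study candidates, and the highest and lowest differences between cultures. The members and lists were chosen with earlier results of these data known. miR-125b-2-3p and the members given as not called were named after their values were seen.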

Additional observations from a re-analysis of the deposited data

Results flagged for a closer look

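In 5 of 108 groups of 4 libraries, 1 library stood apart from the other 3 by Dixon's test, and chance alone would flag about 1 group in 20. These were miR-99a-5p in adherent shRELB replicate 2 (46.8 CPM), miR-1269a in adherent shRELA replicate 3 (274 CPM), and 3 shNeg values: miR-1293 in replicate 2 (6.67 CPM), miR-215-3p in replicate 4 (11.3 CPM) and miR-200c-3p in replicate 4 (3264 CPM). None of these values closed the gap between the shRELA and shRELB libraries.

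The log2 fold change between the knockdowns differed between cultures, by edgeR's test of the interaction, in 9 named miRNAs. Adherent minus spheroid, the difference was -3.46 for miR-509-3p, -2.38 for miR-4683, -1.49 for miR-187-3p, -1.37 for miR-184, -1.21 for miR-92b-3p, -1.21 for miR-205-5p and -1.15 for miR-378a-3p. It was 3.55 for miR-335-5p and 1.45 for miR-10b-5p.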

How the results depend on the processing

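No called value of a named miRNA changed direction under any alternative tried, and the called miRNAs outside the naming rule and the lists were not checked for this. Among named miRNAs that were not called, miR-100-5p ran from -0.10 (without shRELA replicate 3) to 0.36 with 1 library left out and was below 0 with library totals, and miR-675-5p ran from -1.33 to 0.80 (without shRELB replicate 2). Of the 71 named miRNAs called between adherent shRELA and shRELB, 39 kept their call at every setting that tested them and 32 lost it at one or more, and the cause was not tested. Among the 39, miR-99a-3p, miR-135a-5p, miR-135b-5p and miR-215-3p were tested at only 11 of the 12 settings other than leaving out an adherent library. The 99 calls became 153 at an FDR below 0.05 (60 higher, 93 lower), 166 in a fit on the 12 adherent libraries alone (59 higher, 107 lower) and 150 in a fit on the 8 libraries compared (93 lower). The 39 higher calls became 20 at a mean of at least 10 CPM, 23 with library totals and 25 with limma. Of the named calls, library totals ended those of let-7d-5p, let-7f-5p, miR-9-5p, miR-20a-5p, miR-29a-3p, miR-29b-3p, miR-105-3p, miR-106a-5p, miR-767-3p, miR-1468-5p and miR-12135, and median-ratio size factors those of miR-27a-5p, miR-424-3p, miR-483-3p and miR-187-3p. limma ended those of miR-335-5p, miR-335-3p, miR-124-3p, miR-200b-3p, miR-204-5p, miR-20b-5p, miR-302a-3p, miR-302b-3p, miR-302c-5p, miR-552-5p, miR-27a-5p, miR-424-3p and miR-187-3p, and all those ended by library totals except let-7d-5p, let-7f-5p, miR-9-5p and miR-29a-3p. With median-ratio size factors 43 were higher and 56 lower. Leaving out 1 of the 8 libraries compared gave 72 to 103 calls, 24 to 52 of them higher and 43 to 56 lower, and leaving out spheroid shNeg replicate 1, which bears on the shared spread and the filter (900 miRNAs tested), gave 145, of them 56 higher and 89 lower. Spheroid shNeg replicate 1 had 432 miRNAs detected, against 813 to 885 in the other spheroid shNeg libraries. The fits that left out 1 of the 8 libraries compared all kept it. With the replicate number as a block 86 miRNAs were called, all among the 99 (30 higher, 56 lower), and no block was kept since same-numbered libraries deviated together by correlations of only -0.331 to 0.092. The 60 spheroid calls became 97 by the likelihood ratio test, 107 at an FDR below 0.05, 40 in a fit on the 12 spheroid libraries alone (11 higher, 29 lower) and 53 to 98 with 1 library left out (98 without spheroid shNeg replicate 1). The 13 differences between cultures became 23 with DESeq2, 6 with limma, 31 by the likelihood ratio test, 33 at an FDR below 0.05, 31 in a fit on the 16 knockdown libraries and 2 to 33 with 1 library left out. Calls against shNeg rose from 34 to 58 (shRELA) and from 64 to 118 (shRELB) in the fit on 12 adherent libraries, to 54 and 117 in fits on the 8 libraries compared, and ran from 25 to 43 and from 54 to 92 with 1 library left out. miRNAs that reached 1 CPM in fewer than 4 libraries were left out of the main fit. Some of those called still averaged under 1 CPM in the 8 libraries compared, down to 0.653 CPM, and such levels rest on few counts.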
